A study of Homo sapiens with 8 samples.

Results

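The zinc finger genes of human chromosome 19 were taken as all rows of the HT29 table that lie on chromosome 19 and whose name is ZNF followed by digits and at most 1 letter from A to D. This rule gave 244 of 38148 genes, and antisense and pseudogene names were left out by it. HT29 cells derive from a human colorectal carcinoma and carry mutant BRAF, and the drug selumetinib blocks MEK, which acts just upstream of ERK. Cells were left untreated or grown in 1 μM selumetinib for 24 h, fixed with glyoxal, stained for CCNB1 (cyclin B1, which accumulates in G2 cells) and sorted by that stain, after which poly(A) mRNA of the fractions without CCNB1 (CCNB1-negative) and with it (CCNB1-positive) was sequenced. Each of the 2 fractions was taken from untreated and from drug-treated cells, which makes 4 groups of 2 libraries. All came from the 1 cell line, and no label says whether the 2 libraries of a group came from separate cultures, so p-values measure only the spread between these libraries. The sample titles give, for all 8 libraries, the other treatment and the other fraction than the short descriptions do. Groups follow the descriptions, which are also the column names of the table, and under the titles the direction of each response would be turned round and the fractions would trade places.

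Most of these genes encode proteins in which an array of Krüppel-type zinc fingers reads DNA and a KRAB domain recruits the corepressor TRIM28. TRIM28 in turn brings the histone methyltransferase SETDB1, heterochromatin protein and histone deacetylases, and many of the proteins silence transposable elements. The genes multiplied by tandem duplication and stand in long clusters along chromosome 19, whose chromatin is itself marked as heterochromatin in many cell types. Not every ZNF gene encodes a KRAB domain. ETS transcription factors, several of which ERK phosphorylates, bind short sites around the letters GGAA.

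Promoter windows from RefSeq on GRCh38.p14, running from 250 bases before to 50 bases after the transcription start, were found for 214 of the 244 genes. The letters CCGGAAG, a form of the ETS site, were searched on both strands. They were present in 97 of the 214 windows (45.3%), beside 10.7% of all 27305 windows in the same reference. Among ZNF genes on other chromosomes 34.8% of 210 windows held them. The windows also held the CCAAT box (CCAAT) in 53.3% and the GC box (GGGCGG) in 67.8%, beside 35.7% and 44.6% of all windows. The AP-1 letters (TGANTCA) were found in 6.54%, beside 7.76%. Such a match is a description of letters and not a binding site.

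The windows of 5 genes whose level moved in both fractions are shown here with the ETS letters in capitals on either strand. ZNF611 and ZNF91 rose and hold 1 match each, ZNF69 rose and holds none, ZNF787 fell and holds 3 matches, 2 of which share letters on opposite strands, and ZNF146 fell and holds none. They lie on chromosome 19 at 52734995 to 52735294 (minus strand), 23395422 to 23395721 (minus), 11887532 to 11887831 (plus), 56121246 to 56121545 (minus) and 36214856 to 36215155 (plus), in that order, each 300 bases from 5′ to 3′.
ZNF611: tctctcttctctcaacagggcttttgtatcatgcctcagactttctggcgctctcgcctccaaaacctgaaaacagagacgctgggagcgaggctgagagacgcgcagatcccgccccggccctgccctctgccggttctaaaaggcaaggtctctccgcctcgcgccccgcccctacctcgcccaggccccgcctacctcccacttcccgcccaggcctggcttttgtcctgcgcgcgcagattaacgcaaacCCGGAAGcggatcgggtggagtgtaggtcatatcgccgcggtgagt
ZNF91: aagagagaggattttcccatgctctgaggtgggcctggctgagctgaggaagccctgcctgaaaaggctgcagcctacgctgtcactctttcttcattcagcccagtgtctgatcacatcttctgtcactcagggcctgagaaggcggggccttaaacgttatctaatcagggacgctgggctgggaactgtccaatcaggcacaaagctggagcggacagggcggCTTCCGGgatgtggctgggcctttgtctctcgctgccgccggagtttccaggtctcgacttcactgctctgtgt
ZNF69: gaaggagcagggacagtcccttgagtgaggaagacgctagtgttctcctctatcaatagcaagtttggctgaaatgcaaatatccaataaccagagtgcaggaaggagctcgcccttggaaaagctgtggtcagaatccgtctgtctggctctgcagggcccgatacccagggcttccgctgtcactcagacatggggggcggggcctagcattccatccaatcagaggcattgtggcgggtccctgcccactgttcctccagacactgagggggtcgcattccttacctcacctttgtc
ZNF787: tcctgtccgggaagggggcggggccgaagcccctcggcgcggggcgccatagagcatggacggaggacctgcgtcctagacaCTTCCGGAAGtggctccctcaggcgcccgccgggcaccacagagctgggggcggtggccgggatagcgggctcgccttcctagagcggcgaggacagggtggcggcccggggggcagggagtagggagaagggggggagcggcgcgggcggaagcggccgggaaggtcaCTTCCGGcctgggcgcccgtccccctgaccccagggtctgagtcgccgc
ZNF146: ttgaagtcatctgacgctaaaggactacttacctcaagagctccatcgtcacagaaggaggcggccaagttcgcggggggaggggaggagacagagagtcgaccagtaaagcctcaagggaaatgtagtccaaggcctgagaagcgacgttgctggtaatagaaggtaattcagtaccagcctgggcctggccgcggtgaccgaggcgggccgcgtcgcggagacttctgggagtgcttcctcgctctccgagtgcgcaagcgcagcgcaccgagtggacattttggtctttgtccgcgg

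Depth was 12696860 to 23916160 reads on genes per library, and 159 of the 244 genes were tested, those whose mean log2 value over the libraries was at least that of 1 RPM (reads of a gene per 1000000 reads on genes of the library). CCNB1 stood at 136 and 171 RPM in untreated CCNB1-negative, 591 and 704 in untreated CCNB1-positive, 11 and 6.93 in treated CCNB1-negative and 309 and 267 RPM in treated CCNB1-positive libraries. Of 6 ERK target genes, 5 were lower with selumetinib in both fractions by limma (DUSP6, SPRY4, ETV4, ETV5 and PHLDA1) and EGR1 was higher. Under the sample titles CCNB1 would be higher in the CCNB1-negative fraction of each treatment. The 5 ERK targets would then be higher with the MEK inhibitor and EGR1 lower. CCNB1 and 5 of the 6 ERK targets thus go with the descriptions. The 8 epithelial markers summed to 5418 to 12064 RPM per library and 6 markers of leukocytes, endothelium, fibroblasts and smooth muscle to 1.20 to 6.86 RPM, of which COL1A1 rose with selumetinib (1.81 and 2.19). Reads on mitochondrial genes made up 4.44 to 7.80% of untreated and 11.9 to 14.8% of treated libraries, and MALAT1, a nuclear noncoding RNA, 0.303 to 0.386% and 2.01 to 4.42%.

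The chromosome 19 ZNF genes took a larger share of the reads after selumetinib in both fractions. Summed over all 244 genes the level was 2133 and 2047 RPM in untreated CCNB1-negative, 2076 and 1821 RPM in untreated CCNB1-positive, 3578 and 3860 RPM in treated CCNB1-negative and 3002 and 3055 RPM in treated CCNB1-positive libraries. All 4 treated libraries lay above all 4 untreated ones, and the treated CCNB1-negative libraries were the highest. The group means were 2090 ± 60.9, 1948 ± 181, 3719 ± 200 and 3028 ± 37.9 RPM (SD, n = 2). These are shares of the reads of sorted cells, in which fewer cells of a type and less RNA per cell cannot be told apart. The mitochondrial and MALAT1 shares given above rose with the same treatment. Their part in this summed level was not tested, and the calls made with scaling to nuclear reads without MALAT1 are given below. The 10 genes with the highest mean made up 26.1% of the summed level and the first 20 made up 41.5%.

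Selumetinib raised 93 of the 159 genes and lowered 19 in CCNB1-negative cells (limma, adjusted p under 0.05 over 14219 genes), where 38.2% of all genes tested were higher and 35.8% lower. Their median log2 fold change was 0.74, beside 0.05 over all genes, and 63 rose at least 2-fold, as 26.6% of all genes did. In CCNB1-positive cells 89 were higher and 8 lower, where 38.0% and 27.3% of all genes were, with a median of 0.76 beside 0.17 and 59 rising at least 2-fold (24.4% of all genes). The filter used the mean over all 8 libraries, for members and all genes alike. Some members low in untreated libraries, such as ZNF763, ZNF844 and ZNF709, thus passed it only through treated ones and are among the higher calls. Their number was not counted. Both treated libraries lay above both untreated ones for 114 genes and below them for 23 in CCNB1-negative cells (48.6% and 38.2% of all genes), and for 123 and 15 in CCNB1-positive cells (52.8% and 33.4%). The share of higher calls depended on the scaling: quantile normalization gave 75 higher and 35 lower in CCNB1-negative cells, with 50 and 37 in CCNB1-positive cells, where that scaling called 34.6% and 38.3%, and 28.0% and 30.9% of all genes. Limma-voom on the recovered reads gave 70 and 33, and 63 and 23, where it called 28.3% and 47.6%, and 25.5% and 43.6% of all genes. The 50 higher with quantile normalization in CCNB1-positive cells are thus near the share of all genes. Under these 2 scalings the median of all genes moved to -0.08 and -0.37 in CCNB1-negative and to -0.07 and -0.27 in CCNB1-positive cells. The members' median lay above that of all genes by 0.69 in CCNB1-negative cells, by 0.59 with quantile normalization and by 0.69 with limma-voom, and in CCNB1-positive cells by 0.59, 0.27 and 0.57. Scaling to nuclear reads without MALAT1 gave 99 higher and 11 lower in CCNB1-negative cells, with 100 and 7 in CCNB1-positive cells. It called 42.8% and 30.6%, and 43.0% and 21.8% of all genes, and the members' median lay above theirs by 0.69 and 0.59.

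Called in both fractions were 82 higher and 8 lower, which is 51.6% and 5.03% of the 159 genes, beside 33.3% and 26.0% of all genes tested. The 82 were 88.2% of those higher in CCNB1-negative and 92.1% of those higher in CCNB1-positive cells. No gene was called in opposite directions, and 40 were called in neither fraction. The 2 responses rest on different libraries, but the fractions of each treatment were separated from each other by sorting, so they are not independent experiments.

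Weakly expressed genes as a whole were higher after selumetinib, so the response is also given by level. Of the 73 members whose mean log2 value reached that of 10 RPM, 44 were higher and 12 lower in CCNB1-negative cells when genes of that level were fitted alone, where 32.5% and 44.5% of 10119 genes were, with a median of 0.71 beside -0.21. In CCNB1-positive cells the counts were 42 and 7, where 30.7% and 35.6% of genes were called, with a median of 0.62 beside -0.09. Among the 86 members between 1 and 10 RPM by the same mean, the median was 0.77 in CCNB1-negative cells, with 0.80 in CCNB1-positive cells, beside 0.88 and 1.00 over all 4100 genes of that level. At this lower level the members' medians were below those of all genes.

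**Figure D1:**
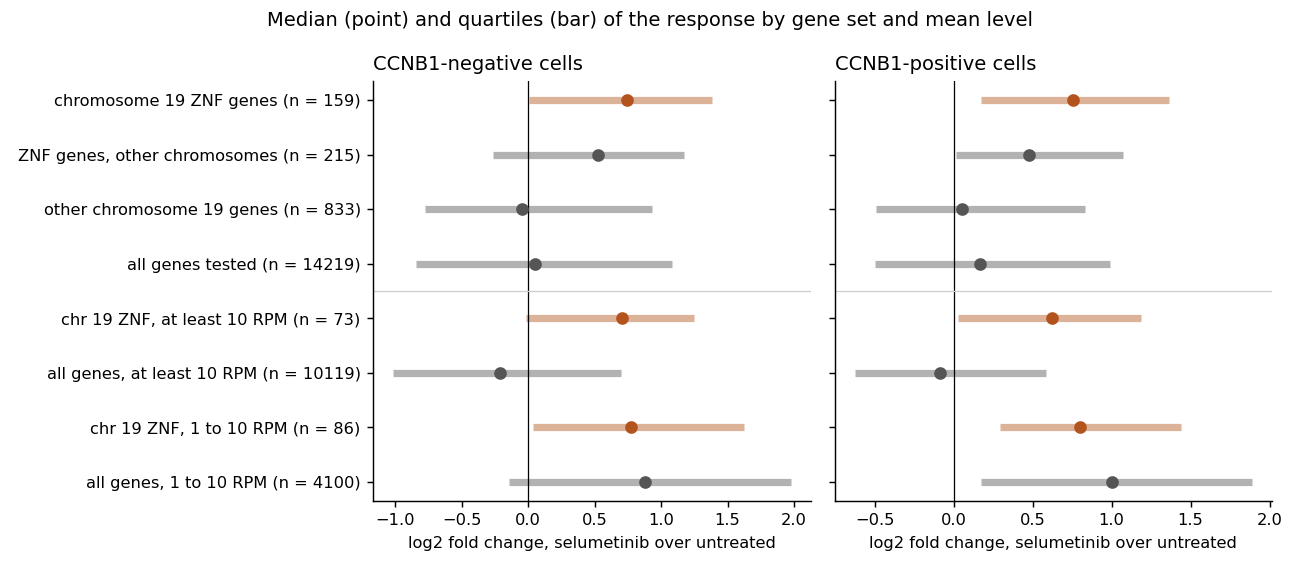
The points are medians and the bars the quartiles of the log2 fold change (selumetinib over untreated, horizontal axis) in CCNB1-negative (left) and CCNB1-positive cells (right) for each gene set named on the vertical axis. The chromosome 19 ZNF genes have medians of 0.74 and 0.76, and above 10 RPM all genes have medians of -0.21 and -0.09.

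The 215 ZNF genes tested on other chromosomes had 112 higher and 41 lower in CCNB1-negative cells, with a median of 0.53, and 105 and 20 in CCNB1-positive cells, with a median of 0.47. The 833 other chromosome 19 genes tested had 280 higher and 322 lower, with a median of -0.05, and 279 and 240, with a median of 0.05. The medians of the members were nearer to those of ZNF genes elsewhere than to those of the other genes of their chromosome, and these sets were not tested against each other. Of members with a promoter window, the 64 tested that hold the ETS letters had 35 higher and 3 lower in CCNB1-negative cells, with 34 and 1 in CCNB1-positive cells, with medians of 0.63 and 0.68. The 78 without them had 45 and 13, and 43 and 6, with medians of 0.73 and 0.76. Higher calls were 54.7% with the letters and 57.7% without in CCNB1-negative cells, and 53.1% and 55.1% in CCNB1-positive cells. Lower calls were 4.69% and 16.7%, and 1.56% and 7.69%. Of all genes tested, 38.2% were higher and 35.8% lower in CCNB1-negative cells, with 38.0% and 27.3% in CCNB1-positive cells.

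Among the tested genes, the largest rises in CCNB1-negative cells were those of ZNF763 and ZNF69, which lie near each other on the short arm. ZNF763 (chromosome 19 of GRCh38, 11965037 to 11980381) was at 0.865 and 0.889 RPM in untreated CCNB1-negative, 0.460 and 0.363 in untreated CCNB1-positive, 10.7 and 12.4 in treated CCNB1-negative and 6.06 and 5.39 RPM in treated CCNB1-positive libraries. All treated libraries were above all untreated ones, with a log2 fold change of 3.58 (SE 0.33, adjusted p 3.8e-07) in CCNB1-negative cells, with 3.70 (SE 0.33, adjusted p 9.4e-07) in CCNB1-positive cells. The untreated libraries held 8 to 19 reads of ZNF763 and were all under 1 RPM. Only the treated libraries thus carried it past the filter, and its rise is given as a description. ZNF69 (11887784 to 11914329), whose window is printed above, was at 6.83 and 5.02, 6.86 and 4.22, 55.0 and 68.2, and 38.7 and 41.5 RPM in the same order of groups. Its groups did not overlap by treatment either, and it rose by 3.25 (SE 0.23) in CCNB1-negative cells, with 2.79 (SE 0.23) in CCNB1-positive cells.

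ZNF358 (7515292 to 7521025) went from 1.32 and 1.10 to 12 and 10.002 RPM in CCNB1-negative and from 1.00 and 0.681 to 8.11 and 4.25 RPM in CCNB1-positive libraries, log2 fold changes of 3.05 and 2.72 (SE 0.36 for both). ZNF611 (52702813 to 52735073) went from 4.87 and 3.98 to 28.0 and 34.0 RPM and from 4.52 and 2.90 to 21.7 and 23.8 RPM, rises of 2.67 and 2.54 (SE 0.23 for both). Both genes had all treated libraries above all untreated ones. ZNF233 (44259880 to 44275317) went from 0.911 and 0.837 to 4.79 and 5.67 RPM and from 0.794 and 0.318 to 3.35 and 3.40 RPM, rises of 2.44 and 2.64 (SE 0.44 for both). Like ZNF763, it was under 1 RPM in all untreated libraries and passed the filter only through the treated ones. Its exons overlap those of ZNF235 on the opposite strand, which stood about an order of magnitude higher at 6.07 to 9.65 RPM untreated and 32.5 to 53.8 RPM treated. ZNF235 was named for this overlap after its values were seen, and reads of such a pair cannot be told apart where counting ignores strand, which is not stated for the table.

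Of the 19 genes lower in CCNB1-negative cells, 8 were lower in CCNB1-positive cells too. ZNF146 (36214602 to 36238774), which encodes a protein made up almost wholly of fingers with no KRAB domain, was the highest member by reads, at 112 and 139.9 RPM in untreated CCNB1-negative, 136 and 142 in untreated CCNB1-positive, 92.2 and 87.2 in treated CCNB1-negative and 85.3 and 83.1 RPM in treated CCNB1-positive libraries. The treated libraries lay below the untreated ones in both fractions, with log2 fold changes of -0.62 (SE 0.15, adjusted p 0.0017) and -0.82 (SE 0.15, adjusted p 0.00029). ZNF787 (56087366 to 56121295) was at 87.1 and 83.3 RPM, 119 and 100.3 RPM, 63.3 and 51.0 RPM, and 65.9 and 64.2 RPM in the same order. It fell by 0.72 and 0.85 on the log2 scale (SE 0.15 for both), again without overlap.

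ZNF473 (50025714 to 50053414), which takes part in the 3′ end processing of histone transcripts, went from 31.5 and 28.5 to 14.5 and 16.7 RPM in CCNB1-negative cells and from 35.0 and 32.2 to 20.02 and 24.7 RPM in CCNB1-positive cells. The log2 fold changes were -1.08 (SE 0.17) and -0.70 (SE 0.17), and its exons overlap VRK3 on the opposite strand. ZNF574 (42068477 to 42081552) fell by 1.28 and 0.84 on the log2 scale (SE 0.23 for both), from 21.7 and 16.4 to 10.4 and 7.01 RPM and from 24.3 and 23.1 to 16.1 and 12.6 RPM. Its call in CCNB1-positive cells was lost without treated CCNB1-positive replicate 2 (-0.65, adjusted p 0.058). ZNF576 (43596392 to 43601157), which shares exon sequence with SRRM5 on the same strand, fell by 1.21 and 0.84 (SE 0.21 for both), from 19.5 and 20.7 to 11.5 and 7.95 RPM and from 18.6 and 20.2 to 12.5 and 10.8 RPM.

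ZNF296 (45071500 to 45076587) was at 5.37 and 3.35 RPM untreated and 2.14 and 2.52 RPM treated in CCNB1-negative cells, and at 5.90 and 6.13 and then 2.85 and 3.26 RPM in CCNB1-positive cells. Its log2 fold changes were -1.01 and -1.08 (SE 0.30 for both), and the first lost its call without untreated CCNB1-negative replicate 1 (-0.67, adjusted p 0.11). The others lower in both were ZNF121, from 104 to 110 down to 57.8 to 75.1 RPM in CCNB1-negative cells, and ZNF90, from 79.0 to 112 down to 48.6 to 56.9 RPM, both named because the count is small. The other 11 were called lower in CCNB1-negative cells and not in CCNB1-positive cells, among them ZNF530, from 2.60 and 3.61 to 1.29 and 1.10 RPM (log2 fold change -1.501, SE 0.35, adjusted p 0.0016), and ZNF543, from 3.42 and 2.88 to 1.72 and 1.58 RPM (-1.07, SE 0.34, adjusted p 0.011). ZNF543 lost its call without untreated CCNB1-negative replicate 1 (-0.95, adjusted p 0.077), and part of its transcript is near identical to one of LRRC7. Of these 2 genes neither was called by the test of the difference between the responses (1.79, adjusted p 0.055, and 0.88, adjusted p 0.32). With quantile normalization limma called ZNF530 (-0.89, adjusted p 0.043) and ZNF543 (-1.39, adjusted p 0.0026) lower in CCNB1-positive cells too.

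**Figure D2:**
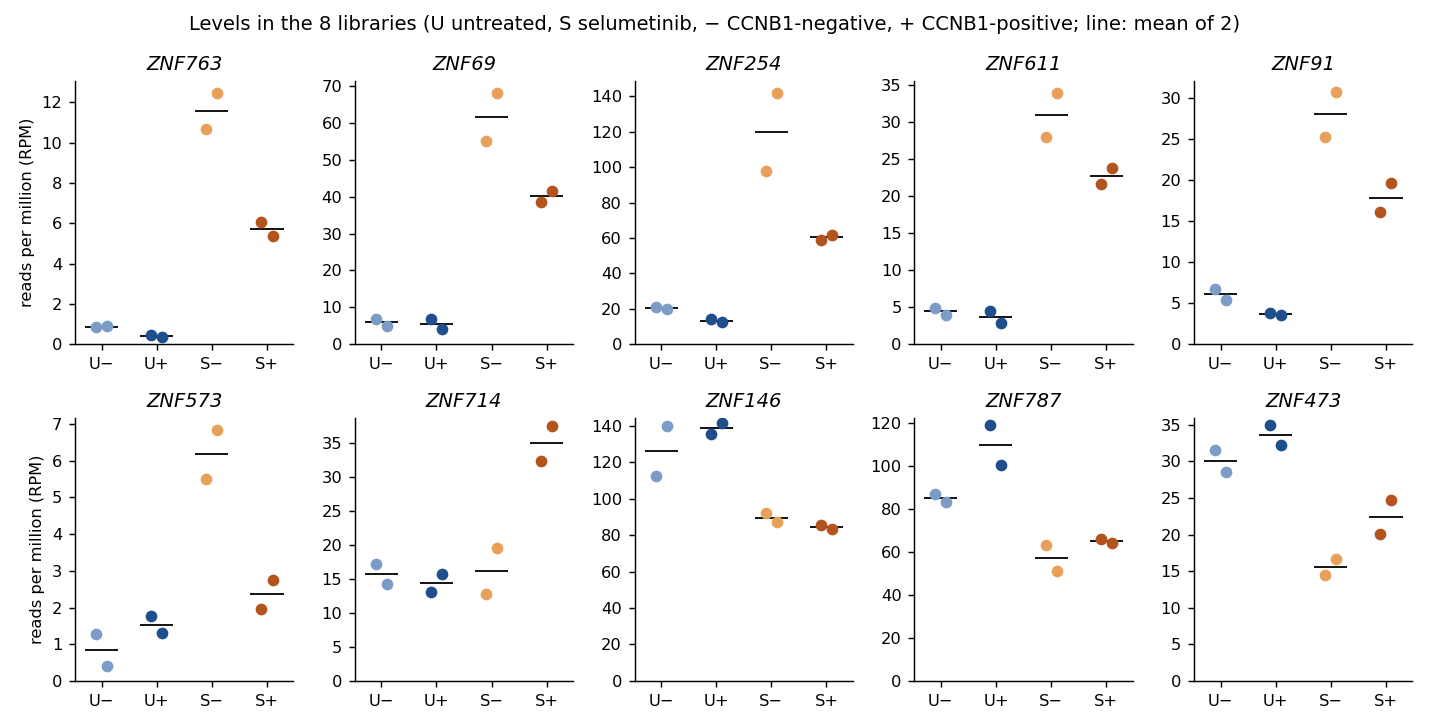
Each panel shows 1 gene, with its level in RPM from 0 on the vertical axis and the 4 groups (U untreated, S selumetinib, minus CCNB1-negative, plus CCNB1-positive) on the horizontal axis; points are the 2 libraries and the line their mean. ZNF763, ZNF69, ZNF254, ZNF611, ZNF91 and ZNF573 lie above the untreated libraries in all treated ones, ZNF573 by little in CCNB1-positive cells. ZNF714 does so only in CCNB1-positive cells, and ZNF146, ZNF787 and ZNF473 lie below.

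The members were next ordered by their start and divided wherever the next start was more than 1 Mb further on, which gave 16 subclusters. Of these, 8 held at least 5 tested genes, together 228 members of which 148 were tested. The other 8 held 16 members, of which 11 were tested, with 4 higher and 5 lower in CCNB1-negative cells, with 4 and 2 in CCNB1-positive cells. Each of the 8 larger subclusters held higher calls in both fractions, which says little where 38.2% and 38.0% of all genes were higher. The share of higher calls lay below these from ZNF302 to ZNF792 (20% in each fraction). It also did so from ZNF557 to ZNF846 in CCNB1-positive cells (33.3%). The medians are set out here in order of position. Counts are described beside the 38.2% higher and 35.8% lower of all genes in CCNB1-negative and 38.0% and 27.3% in CCNB1-positive cells, and subclusters were not tested against each other.

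From ZNF557 to ZNF846 (7.07 to 9.79 Mb, 15 members, 12 tested), 6 genes were higher and 2 lower in CCNB1-negative cells, with 4 and 1 in CCNB1-positive cells. The medians were 0.55 and 0.25, and the second turned to -0.40 with quantile normalization. The summed level was 229 and 223 RPM in untreated and 259 and 296 RPM in treated CCNB1-negative libraries, and 230.2 and 196 and then 223 and 244 RPM in CCNB1-positive libraries, where the groups overlapped. ZNF358 and ZNF846 rose most, and ZNF121, a highly expressed member, fell. ZNF846 (9751993 to 9793180) went from 7.83 and 5.96 to 35.5 and 43.9 RPM and from 6.15 and 4.99 to 19.9 and 19.8 RPM, rises of 2.39 and 1.74 (SE 0.20 for both), and 326 bases of its transcript are near identical to a transcript of MBOAT1.

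From ZNF653 to ZNF791 (11.5 to 12.6 Mb, 25 members, 19 tested), 15 genes were higher and 0 lower in CCNB1-negative cells, with 16 and 0 in CCNB1-positive cells, with medians of 1.22 and 1.36. Among these, ZNF763, ZNF844 (0.681 to 1.46 RPM untreated) and ZNF709 (0.545 to 1.23 RPM untreated) passed the filter only through the treated libraries. The individual changes ran from -0.05 to 3.58 in CCNB1-negative cells. The summed level was 132 and 118 RPM in untreated and 337 and 412 RPM in treated CCNB1-negative libraries, and 109.7 and 90.3 and then 276 and 280.4 RPM in CCNB1-positive libraries, with no overlap. No member of this subcluster had at most 3 reads in every library. ZNF490 (12576100 to 12640098), at its far end, went from 2.50 and 2.35 to 10.9 and 13.9 RPM and from 2.72 and 1.54 to 6.26 and 5.10 RPM, rises of 2.20 and 1.36 (SE 0.30 for both), of which the second was not called with quantile normalization (0.29, adjusted p 0.38).

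From ZNF101 to ZNF254 (19.7 to 24.1 Mb, 36 members, 15 tested), 9 genes were higher and 1 lower in CCNB1-negative cells, with 12 and 1 in CCNB1-positive cells, with medians of 1.28 and 1.34. ZNF254 (24033405 to 24129961) was at 21.1 and 19.7 RPM in untreated CCNB1-negative, 14.1 and 12.5 in untreated CCNB1-positive, 97.6 and 142 in treated CCNB1-negative and 58.8 and 61.9 RPM in treated CCNB1-positive libraries. It rose by 2.39 and 2.08 (SE 0.18 for both), where all members of the subcluster summed to 287 and 361 RPM in treated CCNB1-negative libraries. ZNF91 (23304991 to 23395471), which silences SVA retrotransposons, went from 6.79 and 5.34 to 25.3 and 30.7 RPM and from 3.85 and 3.59 to 16.1 and 19.6 RPM, rises of 2.07 and 2.16 (SE 0.21 for both). Its relative ZNF93, which acts on LINE-1 elements, was near silent at 0 to 1.06 RPM and was not tested. ZNF90, the member that fell here, was the most highly expressed of the subcluster before treatment.

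From ZNF302 to ZNF792 (34.7 to 35.0 Mb, 5 members, all tested), 1 gene was higher and 0 lower in each fraction, ZNF30 in CCNB1-negative and ZNF302 in CCNB1-positive cells. The medians of 0.42 and 0.39 turned to -0.53 and -0.67 with quantile normalization. The summed level was 29.9 and 30.2 RPM in untreated and 46.0 and 42.4 RPM in treated CCNB1-negative libraries, and 24.6 and 23.3 and then 33.9 and 37.1 RPM in CCNB1-positive libraries. From ZNF565 to ZNF573 (36.2 to 37.8 Mb, 27 members, 8 tested), 6 genes were higher and 1 lower in CCNB1-negative cells, with 4 and 1 in CCNB1-positive cells, with medians of 1.07 and 0.92, the second turning to -0.12 with quantile normalization. ZNF585B (37181579 to 37218153) went from 2.64 and 2.30 to 9.65 and 10.6 RPM and from 1.84 and 1.72 to 7.31 and 7.16 RPM, rises of 1.90 and 1.92 (SE 0.25 for both). The summed level was 163 and 185 RPM in untreated and 242 and 253 RPM in treated CCNB1-negative libraries, and 190.2 and 183 and then 184 and 195 RPM in CCNB1-positive libraries, where the groups overlapped. ZNF146, the most highly expressed member of this subcluster, fell.

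From ZNF575 to ZNF296 (43.5 to 45.1 Mb, 23 members, 19 tested), 10 genes were higher and 2 lower in each fraction, with medians of 0.49 and 0.75. The genes that fell, ZNF576 and ZNF296, lie at or near the edges of the subcluster. ZNF224 (44094339 to 44109886), a KRAB repressor, went from 19.9 and 18.9 to 66.4 and 64.7 RPM and from 15.8 and 11.8 to 49.0 and 52.4 RPM, rises of 1.62 and 1.79 (SE 0.17 for both). ZNF428 (43607224 to 43619629), whose exons overlap SRRM5 on the opposite strand, was at 52.6 and 45.4 RPM in untreated and 60.8 and 50.4 RPM in treated CCNB1-negative libraries and at 50.7 and 38.2 and then 50.6 and 48.3 RPM in CCNB1-positive libraries. It did not pass the test, with log2 fold changes of 0.04 and 0.06 (SE 0.17 for both, adjusted p 0.83 and 0.75). Its groups overlapped in both fractions.

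From ZNF175 to ZNF331 (51.6 to 53.6 Mb, 39 members, 29 tested), 18 genes were higher and 3 lower in CCNB1-negative cells, with 18 and 0 in CCNB1-positive cells, with medians of 1.01 and 0.88. The summed level was 358 and 357 RPM in untreated and 667 and 694 RPM in treated CCNB1-negative libraries, and 357 and 309 and then 584 and 620 RPM in CCNB1-positive libraries. ZNF611 led the rises. ZNF765 (53389793 to 53430413) went from 12.1 and 13.9 to 20.4 and 24.2 RPM and from 13.6 and 12.4 to 20.2 and 19.9 RPM (0.63 and 0.52, SE 0.17 for both). It was not called with limma-voom (0.21 and 0.09), nor in CCNB1-positive cells without untreated replicate 2, treated replicate 1 or treated replicate 2 of that fraction (0.46, 0.50 and 0.54, adjusted p 0.11, 0.081 and 0.063). ZNF649, a repressor of the serum response element and AP-1, was called lower in CCNB1-negative cells (1.87 and 1.88 to 1.22 and 1.10 RPM, log2 fold change -0.83, adjusted p 0.048), a call lost without any 1 of the 8 libraries (-0.92 to -0.75). With quantile normalization limma called it lower in CCNB1-positive cells too (-1.34, adjusted p 0.0063).

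From ZNF628 to ZNF446 (55.5 to 58.5 Mb, 58 members, 41 tested), next to the end of the chromosome, 24 genes were higher and 5 lower in CCNB1-negative cells, with 20 and 1 in CCNB1-positive cells, with medians of 0.71 and 0.52. Its summed level was the largest, at 681 and 602 RPM in untreated and 1164 and 1230 RPM in treated CCNB1-negative libraries, and 669.7 and 561 and then 960 and 913 RPM in CCNB1-positive libraries. ZNF497 (58354357 to 58362848) went from 3.51 and 2.41 to 15.6 and 15.9 RPM and from 2.05 and 1.86 to 10.7 and 8.50 RPM, rises of 2.30 and 2.18 (SE 0.26 for both), and its exons overlap the antisense gene ZNF497-AS1. ZNF444 (56132599 to 56160893), a SCAN domain protein, went from 42.8 and 34.2 to 88.1 and 72.8 RPM and from 40.2 and 32.8 to 62.7 and 55.0 RPM (0.93 and 0.59, SE 0.17 for both). The second was not called with limma-voom (0.15, adjusted p 0.43) or without untreated replicate 2 or treated replicate 1 of CCNB1-positive cells (0.45 and 0.49, adjusted p 0.097 and 0.073).

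ZNF274 (58183029 to 58213562), which binds the 3′ ends of zinc finger genes and recruits SETDB1 to them, went from 7.70 and 7.38 to 16.5 and 14.9 RPM and from 8.74 and 6.44 to 15.5 and 14.2 RPM. The rises were 0.92 and 0.88 (SE 0.20 for both), and the second was not called with quantile normalization (0.35, adjusted p 0.12) or limma-voom (0.44, adjusted p 0.057). ZNF175 (0.37 and 0.35, adjusted p 0.18 and 0.21) and ZNF331 (0.21 and -0.14, adjusted p 0.35 and 0.54), among the members named for a known role, did not pass the test in either fraction. ZNF331 was called lower in CCNB1-positive cells with quantile normalization (-0.64) and limma-voom (-0.58). ZNF536, a repressor of neuronal differentiation, at 0 to 1.73 RPM, and ZNF541, of germ cells, at 0 to 0.788 RPM, were not tested.

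**Figure D3:**
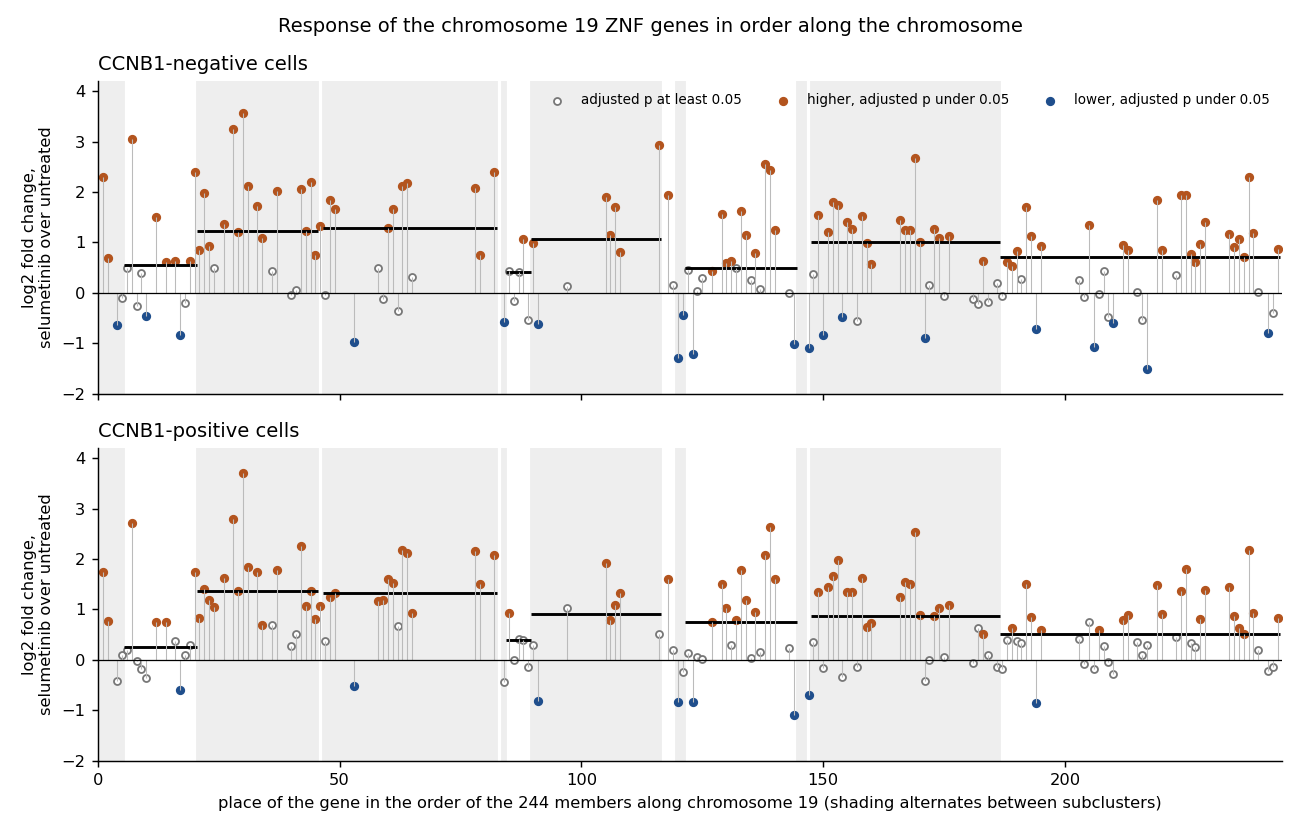
The vertical axes give the log2 fold change (selumetinib over untreated) of the 159 tested genes in CCNB1-negative (upper) and CCNB1-positive cells (lower), and the horizontal axis their place in the order of all 244 members, with shading for alternate subclusters. Filled points passed an adjusted p of 0.05, and black lines are medians of subclusters with at least 5 tested genes, from 0.42 to 1.28 in CCNB1-negative and 0.25 to 1.36 in CCNB1-positive cells.

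**Figure D4:**
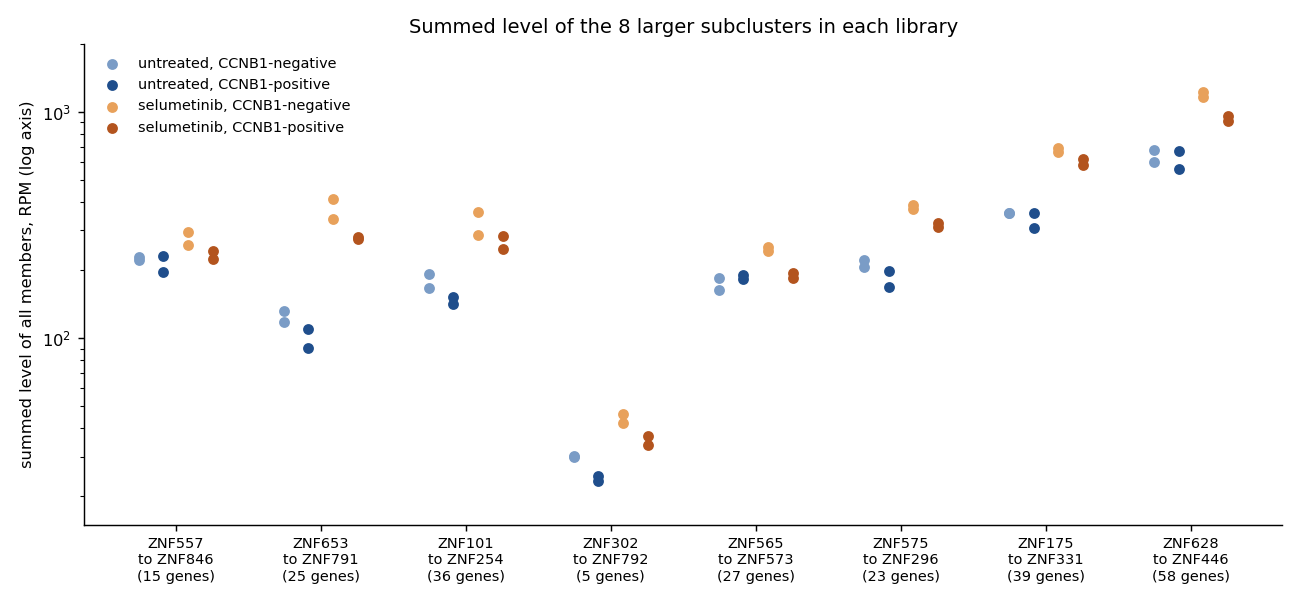
The summed level of all members of each of the 8 larger subclusters (horizontal axis, in order along the chromosome) is given in RPM on a log axis, with 1 point for each of the 8 libraries, coloured by group. In all 8 subclusters both treated CCNB1-negative libraries lie above both untreated ones, and in CCNB1-positive cells the groups overlap from ZNF557 to ZNF846 and from ZNF565 to ZNF573.

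Adjacent genes were compared with genes of different subclusters. Over 145 pairs of adjacent tested members of the same subcluster, the median absolute difference of their log2 fold changes was 0.97 in CCNB1-negative cells, with 0.70 in CCNB1-positive cells, beside 0.99 and 0.82 for 10776 pairs from different subclusters. The correlation between adjacent members was 0.15 and 0.29 (Pearson, given as a description over pairs that share genes and libraries).

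Within each treatment fewer members were called between the fractions than between the treatments. In untreated cells 0 of the 159 genes passed the limma test between CCNB1-positive and CCNB1-negative cells, where 1.36% of all genes passed as higher in CCNB1-positive cells and 1.51% as lower. At an unadjusted p under 0.05 there were 22 genes, where 13.5% of all genes were, limma-voom also called 0, and the median was -0.16 beside -0.06 over all genes. A block for the fractions of the same treatment and replicate number called 1 higher and 16 lower, where it called 4.75% and 8.78% of all genes. In treated cells 4 genes passed as higher in the CCNB1-positive fraction and 13 as lower, where 13.8% and 7.87% of all genes were, with a median of -0.18 beside 0.02. The same block called 9 and 42, where it called 27.0% and 19.9% of all genes. The counts fell to 1 and 1 without treated CCNB1-negative replicate 2 (6.96% and 1.17% of all genes), to 1 and 3 without treated CCNB1-positive replicate 1 (7.31% and 1.67%) and to 2 and 5 without treated CCNB1-positive replicate 2 (8.36% and 3.04%).

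The genes higher in CCNB1-positive cells under selumetinib were ZNF714 (1.18, SE 0.21, adjusted p 0.0015), ZNF530 (1.17, SE 0.35, adjusted p 0.031), ZNF574 (0.78, SE 0.23, adjusted p 0.026) and ZNF473 (0.55, SE 0.17, adjusted p 0.030). The largest calls in the other direction were ZNF490 (-1.08, SE 0.30, adjusted p 0.022), ZNF763 (-0.97, SE 0.33, adjusted p 0.049) and ZNF846 (-0.95, SE 0.20, adjusted p 0.0050), all 3 of which rose with selumetinib in both fractions. Without treated CCNB1-negative replicate 2 none of ZNF530 (1.04), ZNF574 (0.49), ZNF490 (-0.92), ZNF763 (-0.87) or ZNF846 (-0.81) was called. Without treated CCNB1-positive replicate 1 ZNF530 (1.01), ZNF574 (0.60), ZNF490 (-1.23) and ZNF763 (-1.06) were not called, and without treated CCNB1-positive replicate 2 ZNF530 (1.33), ZNF490 (-0.92) and ZNF763 (-0.88) were not. ZNF473 lost its call without any 1 of the 4 treated libraries (0.41 to 0.70, adjusted p 0.054 to 0.21). ZNF763 also lost its call without treated CCNB1-negative replicate 1 (-1.07, adjusted p 0.077) and without either untreated CCNB1-negative library (-0.97, adjusted p 0.053 and 0.054).

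The test of the difference between the 2 responses called 1 gene higher and 1 lower, where 4.99% and 0.345% of all genes were. With the block for the fractions of the same treatment and replicate number it called 4 and 8, where 19.3% and 7.81% of all genes were. ZNF714 (21082159 to 21125270) was at 17.2 and 14.3 RPM in untreated CCNB1-negative, 13.0 and 15.7 in untreated CCNB1-positive, 12.7 and 19.5 in treated CCNB1-negative and 32.3 and 37.4 RPM in treated CCNB1-positive libraries. Only the treated CCNB1-positive libraries stood apart from the rest, and its responses were -0.13 (SE 0.21) and 1.18 (SE 0.21), a difference of 1.31 (SE 0.30, adjusted p 0.018). Limma-voom called ZNF714 lower in CCNB1-negative cells (-0.56, adjusted p 0.026). ZNF573 (37735833 to 37817300) was at 1.28 and 0.419 RPM, 1.76 and 1.32 RPM, 5.50 and 6.85 RPM, and 1.95 and 2.76 RPM in the same order of groups. Its responses were 2.93 (SE 0.47) and 0.51 (SE 0.47), a difference of -2.43 (SE 0.66, adjusted p 0.0497), and the lowest library held 8 reads of the gene.

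Levels between genes can be compared only per length of transcript. By mean RPM per kb of exon, the highest members were ZNF581 (34.8), ZNF428 (32.0), ZNF146 (26.5), ZNF787 (21.5) and ZNF524 (17.7). ZNF581 (55635459 to 55645623) went from 40.5 and 34.2 to 95.2 and 85.0 RPM and from 37.7 and 31.0 to 69.9 and 62.4 RPM, rises of 1.13 and 0.85 (SE 0.16 for both), and shares exon sequence with CCDC106 and ZNF580 on the same strand. ZNF524 (55600022 to 55603138) rose by 0.53 and 0.62 (SE 0.16 for both), calls that limma-voom did not make (0.11 and 0.19, adjusted p 0.57 and 0.32). The first was also lost without untreated CCNB1-negative replicate 2 (0.45, adjusted p 0.072) or treated CCNB1-negative replicate 1 (0.39, adjusted p 0.062). The members most highly expressed thus included genes that rose, fell and did not pass the test.

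At the other end, 85 members had a mean log2 value under that of 1 RPM and were not tested, 6 of them with a plain mean of 1.13 to 1.56 RPM. Of the 85, 31 (12.7% of the 244) had at most 3 reads in every library, and 1 of them, ZNF677, had none in any library. The 85 included 21 of 36 members from ZNF101 to ZNF254 and 19 of 27 from ZNF565 to ZNF573. The longest run of adjacent members with at most 3 reads was of 7 genes, ZNF582, ZNF583, ZNF667, ZNF471, ZNF470, ZNF71 and ZNF835 (56375846 to 56671783), with 26 reads in all 8 libraries together. The next was of 5 genes, ZNF43, ZNF208, ZNF257, ZNF676 and ZNF729 (21804949 to 22317176), also with 26 reads. ZNF382, a KRAB repressor, had 0 to 3 reads per library. These runs were described after their values were seen.

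The promoter windows of the genes with at most 3 reads held a median of 23 CpG sites in 27 windows (range 8 to 42), beside 21 in 142 windows of tested members and 14 in all windows. In the run of 7 genes the windows held 21 to 42 CpG sites, and in the run of 5 genes 10 to 13. DNA methylation of these promoters was not measured in this table.

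**Figure D5:**
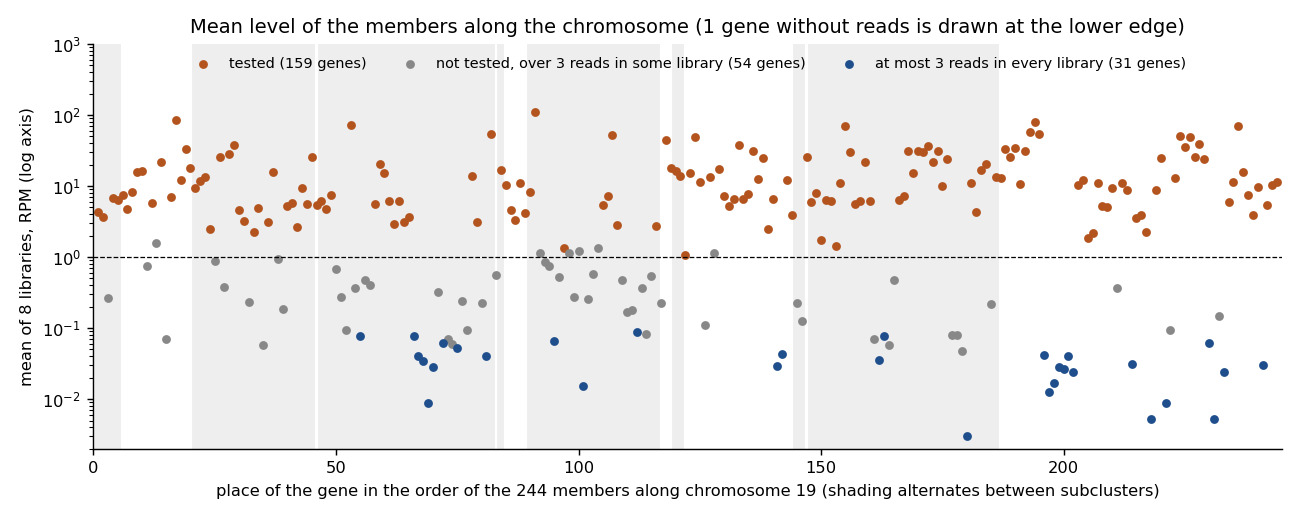
The mean of the 8 libraries in RPM (log axis) is plotted for each of the 244 members in order along chromosome 19, with shading for alternate subclusters and a dashed line at 1 RPM. The 31 genes with at most 3 reads in every library are at the bottom, with runs of 7 and 5 adjacent genes, the 159 tested genes all lie above the dashed line, and 6 untested genes lie just above it because the filter used the mean of log2 values.

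Among the partners through which KRAB zinc finger proteins act, TRIM28 fell in both fractions. Of 25 such genes tested, 7 were higher and 12 lower in CCNB1-negative cells, with 5 and 12 in CCNB1-positive cells, where 38.2% and 35.8%, and 38.0% and 27.3% of all genes were, with medians of -0.20 and -0.34. All but ATF7IP2 had means above 10 RPM. Of all genes of that level 32.3% and 44.4%, and 30.7% and 35.5% were called, with medians of -0.21 and -0.09. The partners' calls and median in CCNB1-negative cells were thus near those of genes of their level. The test of the difference between the responses called 5 higher (SUV39H1, SUV39H2, CBX5, UHRF1 and DNMT1) and 0 lower, where 4.99% and 0.345% of all genes were. TRIM28, the corepressor itself, was at 555 and 514 RPM in untreated CCNB1-negative, 597 and 580 in untreated CCNB1-positive, 249.9 and 206 in treated CCNB1-negative and 350.4 and 323 RPM in treated CCNB1-positive libraries, log2 fold changes of -1.37 and -0.91 (SE 0.16 for both). CBX3, a heterochromatin protein, fell by 1.81 and 1.01 on the log2 scale (SE 0.16 for both), and the histone methyltransferase SUV39H1 fell by 2.97 and 0.77 (SE 0.27 for both). SETDB1 was higher, by 0.95 and 0.41 (SE 0.15 for both), as were MPHOSPH8 (0.90 and 0.94, SE 0.15 for both), a subunit of the HUSH silencing complex, and ATRX (0.94 and 0.85, SE 0.24 for both), a chromatin remodeller found at zinc finger gene clusters.

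Reads of related genes can be assigned to the wrong copy. In 10 members, 9 of them tested, at least 200 bases of the longest transcript were 98% or more identical to a transcript of another locus, as in ZNF587 and ZNF417 (1978 bases). Exons of 81 members overlapped another gene on the opposite strand and those of 86 overlapped 1 on the same strand, among them 53 and 63 of the genes tested. Beside the genes marked above these include ZNF763, ZNF846, ZNF254, ZNF490 and ZNF714 on the same strand. ZNF146 has such an overlap on the opposite strand and ZNF358 on both, and a named gene without this mark is not thereby free of overlap. When the 9 with a near-identical copy were left out of the 159 tested, 87 genes were higher and 18 lower in CCNB1-negative cells, with 83 and 8 in CCNB1-positive cells. Of all genes tested 38.2% and 35.8%, and 38.0% and 27.3% were.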

How the data were processed

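HT29 mRNA was sequenced in 8 libraries, 2 per group. Per the submitters' processing notes the tools were Trim Galore 0.5.0 for trimming and HISAT2 2.1.0 for alignment, on GRCh38, and SeqMonk made the gene table. The authors deposited log2 reads per gene after correcting for library size, with the deepest library as the standard, and a gene with no read stands at the log2 of 0.9 reads shifted by the constant of its library. The annotation release and strand handling are not given in the sources used here. Each of the 8 columns of values entered and 0 were unmapped. Undoing the scaling gave whole read numbers in 100% of the non-zero values (relative tolerance 0.001). They hold no molecular identifiers and bound counting error only.

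Genes whose mean log2 value over the 8 libraries was at least that of 1 RPM were tested on the deposited log2 values with limma 3.58.1 (mean-variance trend, R 4.3.3), with 1 coefficient per group and Benjamini-Hochberg adjustment over genes. The design allowed for counts, but the values are log2. The fit was also run on simulated reads, drawn independently for each library with a fixed spread and few genes changed. That setting is simpler than these data, so it does not check the calls made here. Exons and strands came from GENCODE 44, near-identical transcripts from BLAST 2.17.0, and the rest was done in pandas 2.3.3 and numpy 2.4.6 under Python 3.11.15, with plots from matplotlib 3.10.9.

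The members and lists were chosen with earlier results of these data known. Named genes (35, of which 31 were tested) are the 5 largest rises and falls in each response, the 3 largest differences each way between fractions and between responses, the 5 highest per kb, the strongest of each larger subcluster called in both responses, and members with a known role, of which 1 is not analysed here. Alternatives were other thresholds, filters, scalings, pseudocounts, blocks, groups in the fit, subcluster gaps and libraries left out. Scaling to nuclear reads without MALAT1 and leaving out members with a near-identical transcript were added after seeing the data. Chi-square per gene between replicates was 19.8 to 35.8, and all libraries were kept apart. The labels name another growth medium than the methods.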

Additional observations from a re-analysis of the deposited data

Results flagged for a closer look

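The responses of 2 members differed between the fractions by the interaction test. For ZNF714 the response of CCNB1-positive cells exceeded that of CCNB1-negative cells by 1.31 on the log2 scale (adjusted p 0.018, limma). Leaving out 1 library ended this call in 3 of 8 cases, those of untreated CCNB1-negative replicate 1 (1.18, adjusted p 0.054), untreated CCNB1-positive replicate 1 (1.17, adjusted p 0.071) and treated CCNB1-positive replicate 2 (1.21, adjusted p 0.083). For ZNF573 the difference was -2.43 (adjusted p 0.0497), and the call was lost without untreated CCNB1-negative replicate 2 (-1.63, adjusted p 0.18), untreated CCNB1-positive replicate 1 (-2.22, adjusted p 0.12) or any 1 of the 4 treated libraries (-2.67 to -2.18, adjusted p 0.056 to 0.21). Groups of 2 libraries are too small for a check of single libraries that stand apart.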

How the results depend on the processing

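Over the members named and all alternatives, 1068 single-gene values kept their direction and side of the threshold, 73 were no longer called, 5 became called and 18 changed sign. The cause was not tested except where fewer genes entered. In CCNB1-negative cells the lower count became 10 at an adjusted p of 0.01, 6 at 2-fold, 35 with quantile normalization, 33 with limma-voom and 11 with nuclear scaling, and above 10 RPM the counts were 44 and 12. The median was 0.97 without a filter, 0.51 (quantile), 0.86 (log2 of RPM + 0.1), 0.31 (limma-voom) and 0.92 (nuclear). Over all genes the median without a filter was 0.48. The members' median lay above it by 0.49, beside 0.69 with the filter. In CCNB1-positive cells the counts were 59 and 1 at 2-fold, 42 higher above 10 RPM, 50 and 37 with quantile normalization and 23 lower with limma-voom, with medians of 0.62 (above 10 RPM), 0.19 (quantile), 0.31 (limma-voom) and 0.90 (nuclear). Between untreated fractions the quantile median was -0.026. Between treated fractions the counts were 1 and 2 at an adjusted p of 0.01, 2 and 1 at 2-fold, 2 and 7 without a filter, 7 and 37 with quantile normalization and 2 higher with only the groups compared, with medians of -0.22 (no filter, log2 of RPM + 0.1 and nuclear), -0.27 (quantile) and -0.11 (limma-voom). Of all genes, 4.66% and 2.75% were called there without a filter and 14.1% and 15.3% with quantile normalization. The difference of the responses gave 0 and 0 at an adjusted p of 0.01 and without a filter (median -0.045), 0 lower above 10 RPM and with nuclear scaling, 3 lower with quantile normalization (median -0.18, 2.17% of all genes lower) and 2 higher with limma-voom (4.70% of all genes higher). Deviations of same-numbered libraries correlated at 0.352 (untreated) and 0.428 (treated) between fractions and at -0.0175 and -0.0171 between treatments, and with 2 replicates the numbers are not shown to pair the libraries. A replicate block called 22 lower between treated fractions (9.94% of all genes) and 0 lower for the difference of the responses (0.485% of all genes). A replicate block by culture called 1 and 16 between untreated fractions, 9 and 42 between treated fractions and 4 and 8 for the difference, and its shares of all genes are given above. Subcluster medians above 10 RPM in CCNB1-negative cells were 0.40 (ZNF557 to ZNF846), 0.57 (ZNF101 to ZNF254), 0.53 (ZNF565 to ZNF573), 0.36 (ZNF575 to ZNF296) and 0.84 (ZNF628 to ZNF446), and in CCNB1-positive cells 0.10 (ZNF557 to ZNF846), 1.502 (ZNF653 to ZNF791), 0.14 (ZNF565 to ZNF573), 0.49 (ZNF575 to ZNF296) and 0.66 (ZNF175 to ZNF331). With quantile normalization they were 0.18 and -0.40 (ZNF557 to ZNF846), 0.87 and 0.58 (ZNF653 to ZNF791), -0.53 and -0.67 (ZNF302 to ZNF792), 0.58 and -0.12 (ZNF565 to ZNF573), 0.088 and 0.082 (ZNF575 to ZNF296), 0.56 and 0.36 (ZNF175 to ZNF331) and 0.52 and 0.13 (ZNF628 to ZNF446), and 0.47 in CCNB1-positive cells from ZNF101 to ZNF254. Single genes changed sign in CCNB1-negative cells with quantile normalization (ZNF175 -0.30), limma-voom (ZNF175 -0.058, ZNF428 -0.38, ZNF331 -0.23), log2 of RPM + 0.1 (ZNF714 0.0099) and nuclear scaling (ZNF714 0.047), and without 1 library for ZNF714 (range -0.42 to 0.17) and ZNF428 (-0.11 to 0.19). In CCNB1-positive cells they did so with quantile normalization (ZNF530 -0.89, ZNF573 -0.69, ZNF175 -0.51), limma-voom (ZNF530 -0.13, ZNF428 -0.37, ZNF175 -0.10) and nuclear scaling (ZNF331 0.0065), and without 1 library for ZNF428 (-0.13 to 0.26) and ZNF543 (-0.42 to 0.046). Without 1 library at a time the counts were 82 to 92 higher and 13 to 18 lower in CCNB1-negative cells (median 0.71 to 0.81), 76 to 92 and 7 to 9 in CCNB1-positive cells (0.67 to 0.79), 0 and 0 to 1 between untreated fractions (-0.26 to -0.05), 1 to 6 and 1 to 17 between treated fractions (-0.19 to -0.17) and 0 to 2 and 0 to 1 for the difference (-0.10 to 0.13). Protein classes and an alternative by protein identity were not run. A group of 2 libraries limits all tests. Without the filter on low values, where all members with any read entered, 105 were called higher and 17 lower in CCNB1-negative cells. In CCNB1-positive cells the counts were 96 and 7. Of all genes with any read, 25.5% and 15.9%, and 23.4% and 11.5% were called.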
